A study of Mus musculus with 4 samples.

Results

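C-type lectin receptors are surface and secreted proteins built around a carbohydrate recognition fold. The group described here comprised every gene whose symbol starts with Clec and a digit or with Cd209, together with Mrc1, Mrc2, Mgl2, Ly75, Cd302, Cd207, Asgr1, Asgr2 and Pla2r1. These rules matched 49 of the 49315 genes in the count table, of which 44 had at least 1 count and 24 had enough counts to be tested. The 4 libraries were poly(A)-selected RNA of macrophages grown from mouse bone marrow in L-cell conditioned medium. All 4 came from Lyz2Cre+ mice, in which Cre recombinase is driven from the Lyz2 locus in myeloid cells, so both groups share that allele and no library of another genotype was analysed here. From day 7 of culture the cells were kept for 24 hours in serum-free medium, with LPS at 100 ng/ml and interferon gamma at 50 ng/ml for 2 libraries (M1), or with IL-4 at 10 ng/ml and IL-13 at 10 ng/ml for 2 libraries (M2). Erlotinib, a drug against the EGF receptor, also figures in the series, and whether any of these 4 libraries received it is not stated. No unstimulated library was analysed here, so "higher" and "lower" mean M2 against M1 and do not say which stimulus moved a gene.

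Macrophages and dendritic cells use these receptors to bind sugars on microbes, on dying cells and on host glycoproteins. Some, such as the mannose receptor, carry their cargo inward for degradation or antigen presentation. Others signal: Dectin-1 carries its own activating tyrosine motif, Mincle and Dectin-2 work through the Fc receptor gamma chain, and both routes lead to the kinase Syk and the adaptor Card9. Still others carry inhibitory motifs that recruit phosphatases such as SHP-1.

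The libraries held 26806370 to 39506242 counts, and the members took 0.220% and 0.237% of them in M1 and 0.297% and 0.288% in M2. On the TMM scale, which corrects for differences in RNA composition, the summed level of the members was 2598 and 2739 CPM (counts scaled to the TMM-corrected size of each library) in M1 and 2540 and 2472 in M2. The direction of the total thus turned with the scaling, and it is not read further. All 8 macrophage markers on a list were tested, and 2 were higher and 6 lower in M2. Among the lower ones was Lyz2 (mean 26.3 CPM in M1, 6.70 in M2), from whose locus Cre is driven in these mice. Its level may thus not be that of the unmodified gene. The summed level of the 8 was 8194 to 8208 CPM in M1 and 4367 to 4482 in M2. Most of the M1 sum came from Adgre1 (mean 3089 CPM in M1, 1329 in M2) and Cd14 (3138 and 35.3). The 2 that were higher in M2 were Csf1r (264 and 1640) and Cd68 (119 and 1243), so the sum does not stand for each marker. In bulk RNA, fewer cells of a type and less RNA per cell cannot be told apart. Nothing in the labels says that the 2 libraries of a group came from separate animals or cultures, so the p-values below rest on a spread among these libraries that may be no more than technical.

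The genes with the largest shares of the family's RNA differed between the groups, while several others were abundant in both. Clec4e, which encodes the glycolipid receptor Mincle, gave 48.7% and 53.6% of all member counts in the M1 libraries and 0.243% and 0.218% in the M2 libraries. Mrc1, the mannose receptor CD206, and Clec7a, the beta-glucan receptor Dectin-1, together gave 63.9% and 63.8% in M2 and 0.583% and 0.483% in M1. Clec4d, Clec12a and Clec4a1 were abundant on both sides, at 33.4% and 30.5% of member counts in M1 and 16.7% and 16.8% in M2. It took 7 genes to reach 95% of the member counts in each M1 library and 10 in each M2 library.

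**Figure D1:**
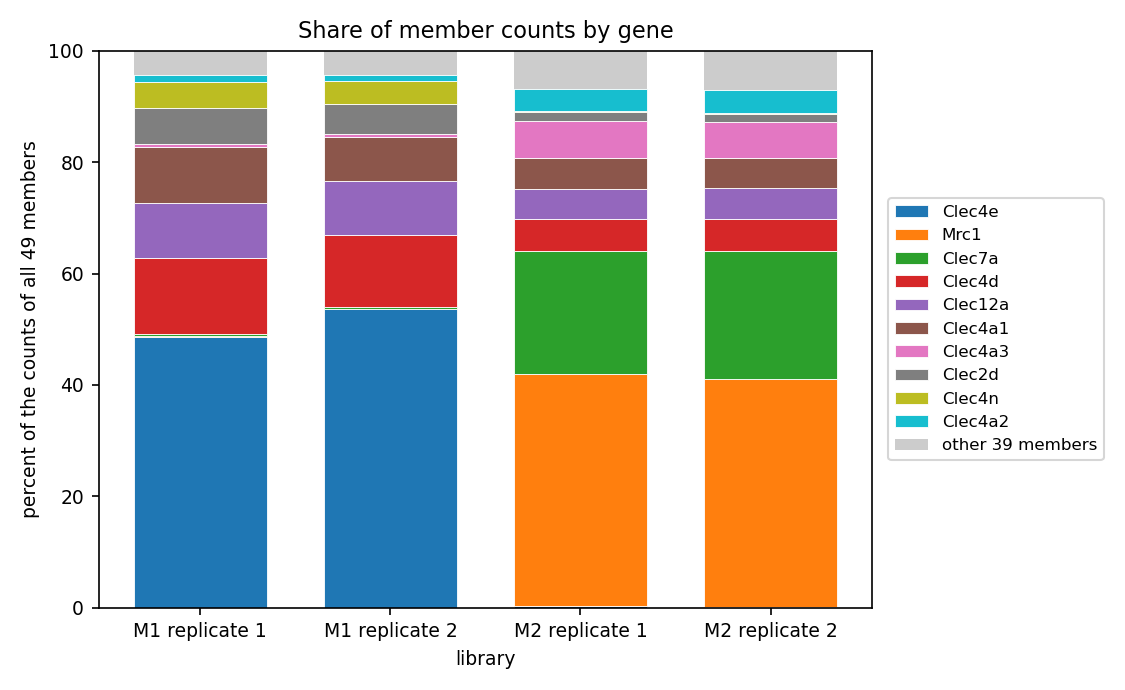
Share of the counts of all 49 C-type lectin receptor genes (y axis, percent) taken by the 10 genes with the largest shares and by the remaining 39, in each of the 4 libraries (x axis). Clec4e fills 48.7% and 53.6% of the M1 bars, and Mrc1 with Clec7a 63.9% and 63.8% of the M2 bars.

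Levels were also scaled to length, as CPM per kilobase of merged exons. Merged exons join all annotated exons of a gene and can be longer than the transcripts expressed. The order between genes therefore depends on the annotation. In M1 this order was led by Clec4e at 275 ± 29.0 (SD, n = 2, here and below) and Clec4d at 220 ± 1.16. Clec4a1 (152 ± 18.0) and Clec2d (131 ± 10.7) came next, and the ranges of mean ± SD of these last 2 overlapped. Differences in level between genes were not tested. In M2 the order was Clec7a at 214 ± 0.0103, Mrc1 at 162 ± 5.10, Clec4a3 at 123 ± 5.79 and Clec4d at 91.2 ± 0.183. Mrc1 thus stood first by counts and behind Clec7a by length-scaled level, since its merged exons span 6371 bases against 2638 for Clec7a. Clec4d was among the leading 4 in both groups.

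The 250 bases before the annotated start are shown for the 2 members with the highest CPM in each group, as these genes carry most of the family's RNA. They are from RefSeq on GRCm38.p6, written along the gene's strand, with matches to a set of transcription factor motifs in capitals.
Clec7a, chr6:129472786-129473035, minus strand: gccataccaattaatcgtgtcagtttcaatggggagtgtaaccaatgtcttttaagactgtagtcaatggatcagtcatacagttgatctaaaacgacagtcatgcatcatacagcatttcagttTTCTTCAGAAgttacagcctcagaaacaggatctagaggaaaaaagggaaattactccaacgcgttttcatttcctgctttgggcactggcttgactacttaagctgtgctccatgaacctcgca
Mrc1, chr2:14229164-14229413, plus strand: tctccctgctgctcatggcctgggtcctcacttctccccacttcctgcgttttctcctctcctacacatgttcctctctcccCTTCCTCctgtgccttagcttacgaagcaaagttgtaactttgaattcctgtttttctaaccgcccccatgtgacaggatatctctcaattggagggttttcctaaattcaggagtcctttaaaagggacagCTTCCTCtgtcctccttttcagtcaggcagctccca
Clec4e, chr6:123289872-123290121, minus strand: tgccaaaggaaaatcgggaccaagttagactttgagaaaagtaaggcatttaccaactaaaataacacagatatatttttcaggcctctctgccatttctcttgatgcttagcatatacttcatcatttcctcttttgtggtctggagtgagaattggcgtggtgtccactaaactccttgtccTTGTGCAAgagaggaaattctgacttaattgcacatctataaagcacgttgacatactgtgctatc
Clec4d, chr6:123261857-123262106, plus strand: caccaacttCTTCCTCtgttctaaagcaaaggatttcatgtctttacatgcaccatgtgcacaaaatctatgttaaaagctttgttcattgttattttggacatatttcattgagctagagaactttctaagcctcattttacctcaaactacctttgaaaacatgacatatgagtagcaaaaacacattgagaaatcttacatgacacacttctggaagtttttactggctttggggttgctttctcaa
The capitals mark a STAT6-type match (TTC and GAA with any 4 bases between) starting 125 bases before the Clec7a start, PU.1-type matches (GAGGAAG or its complement) at 168 and 36 bases before the Mrc1 start and 241 before that of Clec4d, and a C/EBP-type match (TTGCNNAA or its complement) 66 bases before that of Clec4e.

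The motifs were searched on both strands in windows from 250 bases before to 50 after a start, which RefSeq gave for 40 members (44 windows) and 20 of the 24 tested ones. A STAT6-type match stood in 3 of 12 windows of members higher in M2 (the genes Clec7a, in 2 overlapping windows, and Clec5a) and in 1 of 10 windows of members lower in M2, against 6.95% of all 32851 windows. The C/EBP type stood in 2 of 12 and 6 of 10 (5 genes, since Clec2i has 2 windows), against 10.8% of all windows, and the PU.1 type in 2 of 12 and 4 of 10, against 13.6%. The AP-1 type (TGANTCA) stood in 1 of 12 and 1 of 10 (7.81% of all), and the NF-kappaB type (GGG and TTTCC with any 2 bases between) in none of these windows (1.63%). The interferon response type (GAAA and GAAA with any 2 bases between) stood in 1 of 12 and 2 of 10 (3.44%), the latter in Clec2d and in Clec4d, where the match begins at the first transcribed base. Of the 21 windows of members not tested, the AP-1 type stood in 8, the PU.1 type in 3 and the STAT6 and C/EBP types in 2 each. The NF-kappaB and interferon response types stood in 1 each. These are letter matches in a short window, the patterns can overlap one another, and with so few windows the shares are a description only.

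Of the 24 members tested with edgeR's quasi-likelihood test at an adjusted p under 0.05, 22 differed, 12 higher and 10 lower in M2. Among all 14656 genes tested, 77.2% differed, 39.7% higher and 37.5% lower, so a difference as such was the usual case for a gene here. The libraries of the groups did not overlap for 23 of the 24 members, against 88.5% of all genes. The median size of the difference was 1.80 log2 units for members and 0.76 for all genes tested. Members called with a difference of at least 1 log2 unit numbered 9 higher and 6 lower, against 40.7% of all genes in either direction. A difference of at least 5 log2 units was seen in 6 of the 24 members, which is 25%, against 4.59% of all genes tested. Mgl2 and Clec10a, among these 6, had 1 and 3 and 6 and 1 counts in M1. They passed the filter only through M2, and their size rests on those few M1 counts.

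**Figure D2:**
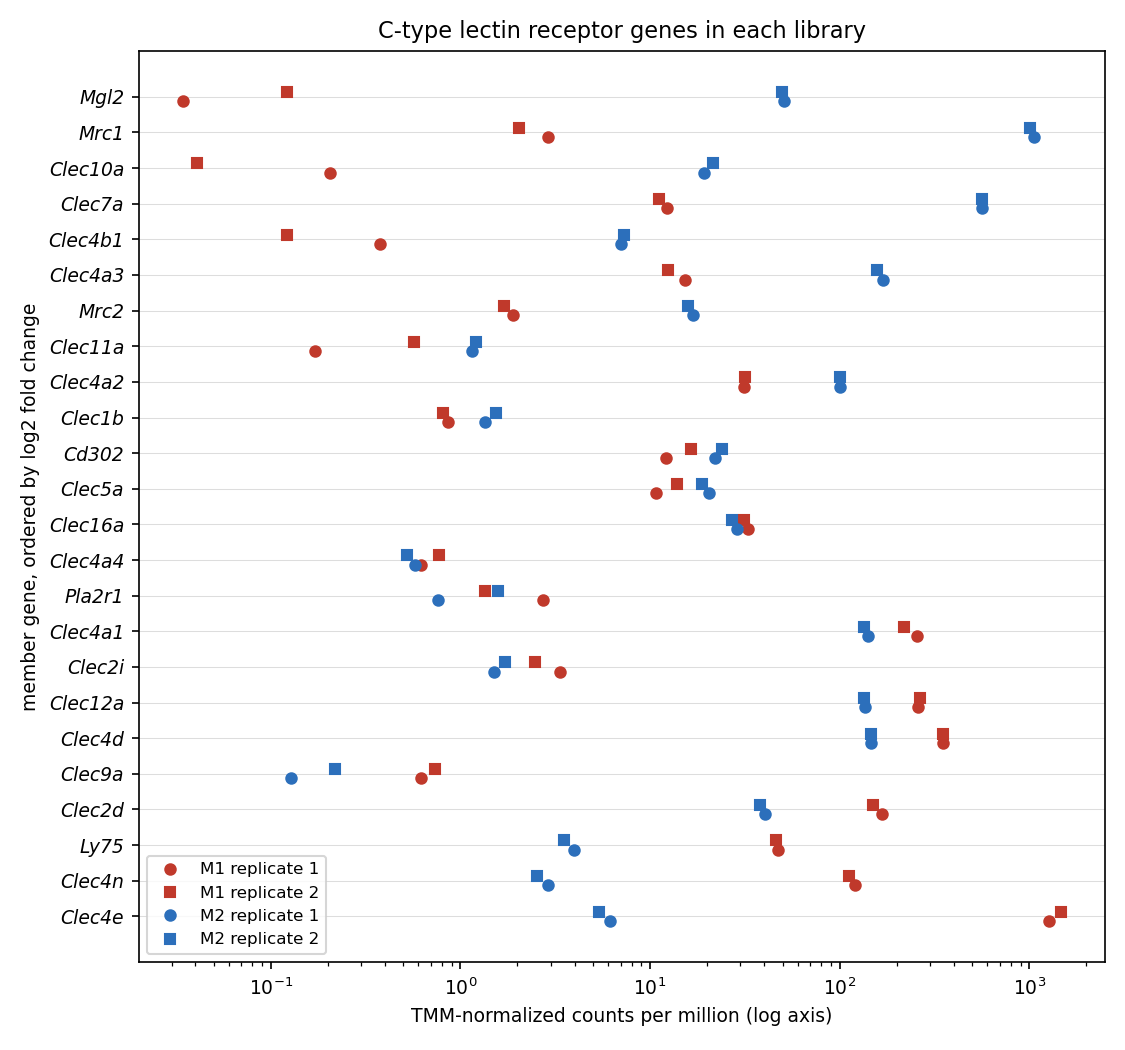
TMM-normalized CPM (x axis, log scale) of the 24 tested members (y axis, from the largest rise at the top to the largest fall at the bottom), with 1 point per library and M1 in red, M2 in blue. Pla2r1 is the only one of the 24 whose red and blue points overlap, and Clec4e runs from 1264 and 1468 in M1 to 6.16 and 5.38 in M2.

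Among the mannose receptor type genes, which encode large endocytic proteins with a row of lectin domains and the smaller Cd302, 3 were higher, 1 was lower and 1 did not pass. Mrc1 takes up glycoproteins that end in mannose and is a common marker of alternatively activated macrophages. It had 2.88 and 2.03 CPM in the M1 libraries and 1058 and 1012 in the M2 libraries. The groups stood far apart, 8.70 log2 units (SE 0.12) or 415-fold (adjusted p = 2.85e-17). Its counts in M1 were 84 and 50, so the low level was itself well above 0.

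Ly75, which encodes the antigen uptake receptor DEC-205 best known from dendritic cells, went the other way. It had 47.2 and 46.0 CPM in M1 and 3.96 and 3.52 in M2, and was 12.6-fold lower in M2 (log2 -3.65, SE 0.09, adjusted p = 1.63e-14). Both M1 libraries lay far above both M2 libraries. On a list of 7 conventional dendritic cell markers 5 were tested, 1 was higher, 3 were lower and 1 was not called. The summed level of that list was 36.0 and 36.2 CPM in M1 and 3.13 and 2.45 in M2, of which Xcr1 alone gave a mean of 31.4 CPM in M1, and Clnk had no count in M1. The part of such cells in the Ly75 difference was not tested. An antisense gene shares 249 exon bases with Ly75, and without strand information its reads could not be told apart, although it held 11 counts over all libraries.

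Mrc2, the collagen uptake receptor Endo180, had 1.89 and 1.71 CPM in M1 and 16.8 and 15.9 in M2. That is 9.02-fold higher in M2 (log2 3.17, SE 0.13, adjusted p = 6.19e-12), at a level far under that of Mrc1. Mrc2 is also a gene of fibroblasts, and all 7 fibroblast and stromal markers were detected and tested, 5 higher and 2 lower in M2. Their summed level was 124 and 116 CPM in M1 and 1148 and 1172 in M2, led by Col1a1 and Col1a2, and their part in the Mrc2 difference was not tested. Cd302, an endocytic receptor with a single lectin domain, had 12.1 and 16.5 CPM in M1 and 22.1 and 23.9 in M2. Its rise was small beside the others, 0.70 log2 units (SE 0.12, adjusted p = 3.14e-04), and its M1 libraries were further from each other than its M2 libraries. Pla2r1, a receptor for secreted phospholipases, had 2.71 and 1.34 CPM in M1 and 0.766 and 1.59 in M2. These groups overlapped and the gene was not called (log2 -0.74, SE 0.40, adjusted p = 0.1248). It passed as lower, however, without M1 replicate 2 (log2 -1.13, adjusted p = 3.7e-05), without M2 replicate 2 (log2 -1.41, adjusted p = 2.91e-04) and without the filter on low counts (adjusted p = 0.0161), while without M1 replicate 1 the difference was -0.12.

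The galactose-binding receptors split into a pair of macrophage genes that were high in M2 and others that were hardly detected. Mgl2, a lectin for terminal N-acetylgalactosamine, had 0.0343 and 0.122 CPM in M1 and 50.7 and 49.6 in M2 (log2 9.32, SE 0.19, adjusted p = 1.30e-15). Clec10a, its close relative MGL1, had 0.206 and 0.0407 CPM in M1 and 19.2 and 21.6 in M2 (log2 7.25, SE 0.24, adjusted p = 8.00e-13). The M1 values rest on 1 and 3 counts for Mgl2 and on 6 and 1 for Clec10a. As ratios of pooled counts, with exact 95% intervals that cover counting error only, Mgl2 was 672-fold (262 to 2468) and Clec10a 158-fold (76.6 to 394) higher in M2. Which M1 library is used moves the fitted value, to 8.64 without replicate 1 and 10.37 without replicate 2 for Mgl2, and to 8.85 and 6.61 for Clec10a. The transcripts of these neighbours align over 830 bases at 93.9% identity and share a stretch of 240 bases at 98% or more, so some reads could have been split between them and the level of each is uncertain. Asgr1 and Asgr2, the subunits of the liver asialoglycoprotein receptor, had 3 and 20 counts over all 4 libraries. Clec4f, a Kupffer cell receptor, had none in M1 and 4 and 1 counts in M2.

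The Dectin-2 cluster, 9 genes in 368 kb of chromosome 6, held the most abundant M1 member and the widest range of differences. Of its 8 tested genes 3 were higher, 4 were lower and 1 was not called. Clec4e, the receptor for mycobacterial cord factor and for a protein released by dying cells, had 1264 and 1468 CPM in M1 and 6.16 and 5.38 in M2. It was 238-fold lower in M2 (log2 -7.90, SE 0.12, adjusted p = 1.57e-16), the largest fall among the tested members. The M1 libraries were close to each other beside the distance between the groups.

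Clec4n, which encodes Dectin-2, a receptor for fungal mannans, followed with 121 and 113 CPM in M1 and 2.91 and 2.54 in M2 (43.3-fold lower, log2 -5.44, SE 0.09, adjusted p = 1.60e-16). Clec4d, whose product MCL pairs with Mincle, had 353 and 350.0 CPM in M1 and 146 and 146 in M2. The replicates of Clec4d were almost level, and its fall of 1.27 log2 units (SE 0.06, adjusted p = 4.15e-11) was much smaller than those of the genes on either side of it. Clec4a1, which encodes DCIR4, had 257 and 217 CPM in M1 and 140.5 and 134.5 in M2 (log2 -0.79, SE 0.08, adjusted p = 3.87e-07). The 4 genes that were lower thus kept no common size, from 1.73-fold to 238-fold.

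Clec4a3, encoding DCIR3, had 15.2 and 12.5 CPM in M1 and 169 and 158 in M2, 11.8-fold higher (log2 3.55, SE 0.09, adjusted p = 4.35e-14). Clec4a2, the inhibitory receptor DCIR, had 31.3 and 31.7 CPM in M1 and 100.3 and 101 in M2, 3.20-fold higher (log2 1.68, SE 0.06, adjusted p = 1.54e-12). Clec4b1, the activating receptor DCAR, had 0.378 and 0.122 CPM in M1 and 6.99 and 7.25 in M2. All 3 were separated from M1 in each library, and for Clec4b1, with 11 and 3 counts in M1, the pooled ratio was 27.4 (16.2 to 50.5). Its log2 difference was 4.76 (SE 0.27, adjusted p = 2.30e-10), or 5.82 without M1 replicate 1. Clec4b1 holds a stretch of 436 bases at 96.3% identity to Clec4a2, the more abundant gene, so its level is less certain. Clec4a4 stayed under 1 CPM in every library and was not called (log2 -0.34, SE 0.34, adjusted p = 0.376), and Clec4b2 had 8 counts in all.

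Order along the chromosome separated these directions in part. The 3 genes at the distal end, Clec4n, Clec4d and Clec4e, were all lower in M2, and the 3 that were higher, Clec4a3, Clec4b1 and Clec4a2, lay before them, with the untested Clec4b2 in between. Clec4a1, at the other end, was lower, and Clec4a4, among the risers, was not called. No other tested gene lies inside this interval. On chromosome 11, Mgl2 and Clec10a are neighbours and both were higher, next to the barely detected Asgr1 and Asgr2. On chromosome 2, Cd302 was higher, its neighbour Ly75 was lower and Pla2r1 was not called, all 3 on the minus strand within 301.3 kb. Neighbouring genes are not replicates, and no test was made of position.

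**Figure D3:**
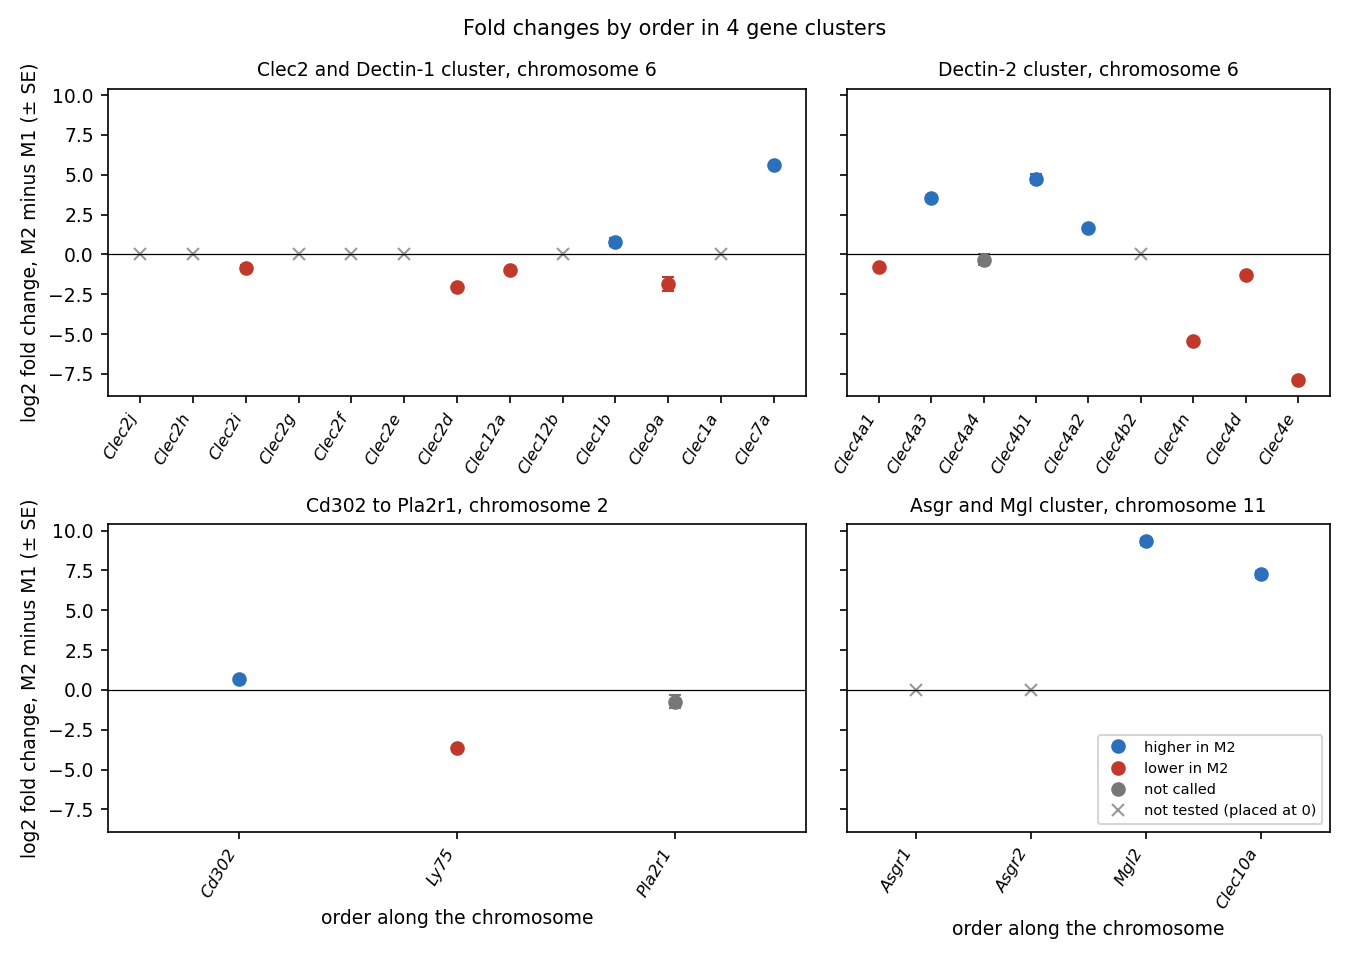
Log2 fold change, M2 minus M1, with its standard error (y axis) of the members of 4 gene clusters in their order along the chromosome (x axis, evenly spaced). Blue points passed as higher in M2, red as lower, grey were not called, and crosses, placed at 0, mark members not tested. In the Dectin-2 cluster the last 3 genes lie at -5.44, -1.27 and -7.90.

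In the Dectin-1 cluster, 2 of the 4 tested genes were higher and 2 lower. Clec7a, whose product binds fungal beta-glucan and signals through its own tyrosine motif, had 12.2 and 11.2 CPM in M1 and 564.3 and 564.3 in M2. Both M2 libraries gave the same level, 48.0-fold above M1 (log2 5.59, SE 0.08, adjusted p = 4.08e-17). GENCODE annotates the mouse gene as a polymorphic pseudogene. Clec12a, encoding the inhibitory receptor MICL that recognizes uric acid crystals, had 258 and 266 CPM in M1 and 137 and 135 in M2. It was 1.93-fold lower in M2 (log2 -0.95, SE 0.06, adjusted p = 1.28e-09), with no overlap.

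The remaining Dectin-1 cluster genes were near the limit of detection. Clec9a, the receptor by which dendritic cells sense actin exposed by dead cells, had 0.618 and 0.732 CPM in M1 and 0.128 and 0.217 in M2 (log2 -1.87, SE 0.44, adjusted p = 0.00129). Clec1b, the podoplanin receptor of platelets, had 0.858 and 0.813 CPM in M1 and 1.34 and 1.54 in M2 (log2 0.79, SE 0.27, adjusted p = 0.0139). The rise of Clec1b did not pass with DESeq2 (adjusted p = 0.133) or without M2 replicate 2 (adjusted p = 0.101). These neighbours share 184 exon bases on the same strand, so reads in that stretch cannot be assigned to either. Of 7 platelet and megakaryocyte markers 6 were tested, 4 were higher and 2 not called, with a summed level of 15.7 and 17.9 CPM in M1 and 28.1 and 33.1 in M2, and their part in the Clec1b difference was not tested. The summed level of the dendritic cell list given for Ly75 was lower in M2, like Clec9a, although Zbtb46 on that list was higher (log2 0.97). The part of that list was not tested either. Clec12b, an inhibitory receptor, had 11 and 3 counts in M1 and 3 and 0 in M2 and did not pass the filter. Its pooled ratio was 6.72 (1.88 to 36.5) in favour of M1, and the fit without a filter called it lower (log2 -2.54, adjusted p = 0.0194). Clec1a had 5 counts in M1 and 17 in M2, 15 of them in 1 library.

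Both tested genes of the Clec2 group, whose products are ligands for receptors of natural killer cells, were lower in M2. Clec2d, the ligand Clr-b, had 168 and 149.5 CPM in M1 and 40.5 and 38.1 in M2, 4.05-fold lower (log2 -2.02, SE 0.07, adjusted p = 9.25e-13). Clec2i, the related Clr-g, had 3.36 and 2.48 CPM in M1 and 1.5 and 1.72 in M2 (log2 -0.86, SE 0.21, adjusted p = 0.00168), and it did not pass under total-count scaling (log2 -0.41, adjusted p = 0.0832). Clec2d and Clec2i transcripts align over 793 bases at 86.8% identity, and those of Clec2i and the untested Clec2g over 2272 bases at 90.3%. Of 10 natural killer and T cell markers, 1 was tested and was lower. Their summed level was 6.45 and 5.78 CPM in M1 and 0.894 and 0.912 in M2, of which Klrk1 gave a mean of 5.62 CPM in M1, and Eomes had no count in M1. The part of such cells was not tested.

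Of the other Clec genes, Clec5a, the activating receptor MDL-1 that pairs with the adaptor DAP12, had 10.7 and 13.9 CPM in M1 and 20.5 and 18.7 in M2. Its groups were separate but close, 1.60-fold apart (log2 0.67, SE 0.11, adjusted p = 8.49e-05). Clec11a, a secreted growth factor of the marrow stroma, had 0.172 and 0.569 CPM in M1 and 1.15 and 1.22 in M2 (log2 1.73, SE 0.41, adjusted p = 0.00134), on 5 and 14 counts in M1. The difference was 1.05 without M1 replicate 1 and 2.76 without M1 replicate 2. The summed level of the fibroblast and stromal list given for Mrc2 was also higher in M2, although Dcn and Lum on that list were lower. The part of that list was not tested. Clec16a shares the family's name but acts in autophagy and the turnover of mitochondria. It had 32.9 and 31.4 CPM in M1 and 28.8 and 27.1 in M2, a difference of -0.21 log2 units (SE 0.07, adjusted p = 0.0180) that became 0.24 under total-count scaling (adjusted p = 0.00696). The call was also lost under upper-quartile scaling (log2 -0.02), without the filter (-0.15), with DESeq2 (-0.23), and without M2 replicate 1 (-0.23) or M2 replicate 2 (-0.15).

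The DC-SIGN and langerin type genes, known from dendritic cells, Langerhans cells and liver endothelium, were all below the filter. Cd207, which encodes langerin, had 0 and 1 counts in M1 and 7 and 11 in M2, a ratio of 12.5 (1.97 to 521), and the fit without a filter called it higher (log2 3.45, adjusted p = 0.00788). Cd209a, the mouse gene most often called DC-SIGN, had 0 and 1 counts in M1 and 0 and 5 in M2. Cd209b, Cd209c, Cd209d and Cd209e had 1 to 3 counts over the 4 libraries, and Clec4g had 8. In all, 25 members were not tested, none with more than 22 counts over the 4 libraries, and together they summed to 0.935 to 1.51 CPM in a library. Those not named above were Clec2e, Clec2f, Clec2l, Clec3b, Clec14a and Clec18a, each with at least 1 count, and Cd209f, Cd209g, Clec2h, Clec2j and Clec3a, with none. A count of 0 allows up to 3 counts, which is 0.0651 to 0.122 CPM in these libraries, and small differences among genes with so few counts were not detectable at this depth. Of the genes listed here without values, Clec2l had 7 and 3 counts in M1 and 1 and 3 in M2, a ratio of 3.60 in favour of M1 (1.04 to 15.7), and it was not called without the filter.

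The other genes of the pathway were a list of 36 adaptors, kinases and transcription factors and 4 phosphatases, all tested. Of these 40 genes 10 were higher, 23 lower and 7 not called, with a median of -0.29 log2 units against 0.04 for all genes tested. Among all genes tested 77.2% differed, 39.7% higher and 37.5% lower, so a call as such was the usual case here too. All 4 phosphatases were lower, but only Ptpn6 stayed so under each scaling. With total-count scaling Inpp5d (log2 0.17, adjusted p = 0.0320) and Inpp5k (0.26, adjusted p = 0.00348) passed as higher and Ptpn11 was at 0.02, and with upper-quartile scaling Inpp5d (-0.10) and Inpp5k (0.00) did not pass. Under total-count scaling, which moved the median gene by 0.45 log2 units, 20 were higher and 16 lower, so the balance of small differences rests on the scale. The genes named next, other than Card9, kept their direction and call under each of the 4 scalings.

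**Figure D4:**
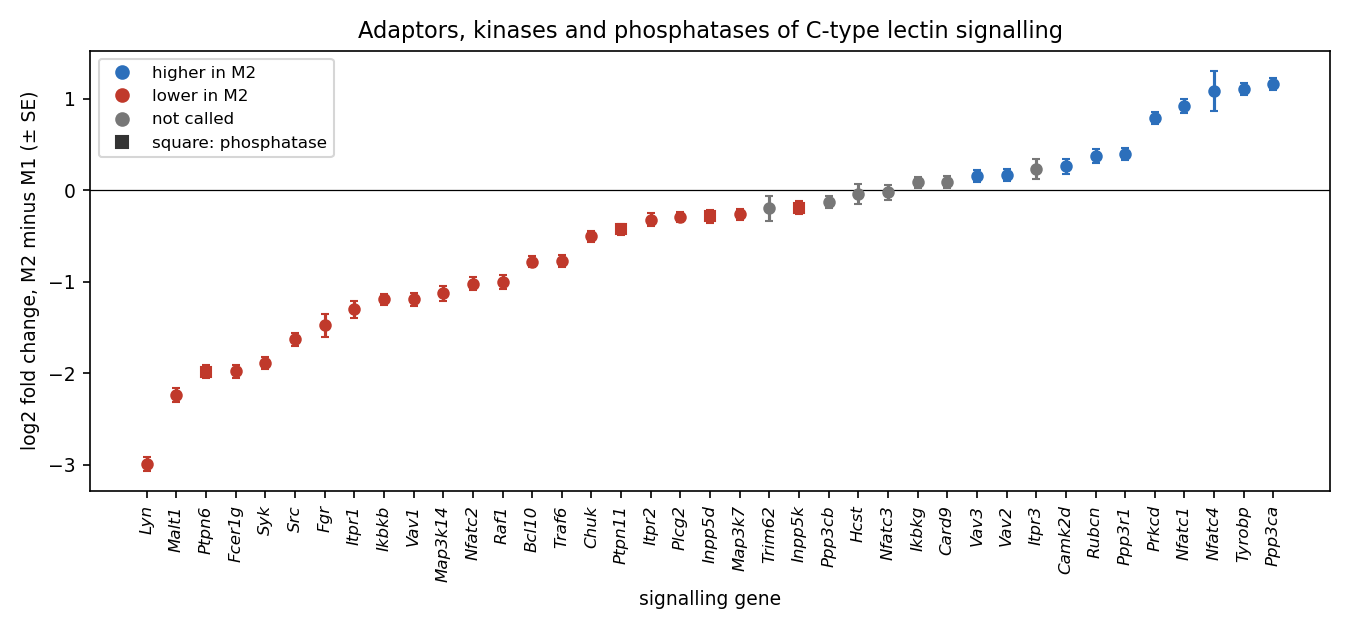
Log2 fold change, M2 minus M1, with its standard error (y axis) of 39 of the 40 genes of C-type lectin signalling (x axis, in order of the difference); circles are adaptors, kinases and transcription factors and squares are phosphatases. The points run from -2.99 for Lyn to 1.16 for Ppp3ca, with 22 of those plotted lower, 10 higher and 7 not called.

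The Src family kinase Lyn had 917 and 846 CPM in M1 and 111 and 111 in M2 (log2 -2.99, SE 0.07, adjusted p = 1.00e-14). Malt1, the protease that acts with Card9 and Bcl10, had 376 and 420 CPM in M1 and 83.0 and 85.7 in M2 (log2 -2.24, SE 0.07, adjusted p = 2.30e-13). Both M2 libraries of each gene lay below both M1 libraries. Among genes of at least 5 CPM the largest rises were smaller: Ppp3ca, a calcineurin subunit, by 1.16 log2 units (adjusted p = 1.92e-10), Tyrobp by 1.11 (adjusted p = 4.43e-10) and the transcription factor Nfatc1 by 0.92 (adjusted p = 4.11e-08).

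The adaptors differed in direction. Tyrobp, which encodes DAP12, had 276 and 282 CPM in M1 and 591 and 611 in M2. Fcer1g, the gamma chain used by Mincle and Dectin-2, had a mean of 1694 CPM in M1 and 429.6 in M2 (log2 -1.98, adjusted p = 1.46e-12). Receptors that use the gamma chain did not all share its direction: Clec4e and Clec4n were lower in M2 as well, but Clec4b1 was higher (log2 4.76). The level of Clec4b1 is less certain, with 11 and 3 counts in M1 and a stretch of 436 bases at 96.3% identity to Clec4a2. Syk, the kinase that both adaptors and Dectin-1 share, was lower (1124 and 304.0 CPM, log2 -1.89, adjusted p = 1.34e-12), as was Ptpn6, which encodes SHP-1 (776 and 196 CPM, log2 -1.98, adjusted p = 7.38e-13). For Card9 the mean level was 47.05 CPM in M1 against 50.05 in M2, which was not called (log2 0.09, adjusted p = 0.205), although it passed as higher under upper-quartile (log2 0.27) and total-count scaling (log2 0.54). Fcer1g, Syk, Ptpn6 and Card9 were named after their values were seen.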

How the data were processed

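The submitters' processing notes name the build GRCm38 and STAR 2.5.2b, featureCounts, Subread 1.5.2, Trimmomatic 0.36, DESeq and DESeq2, without roles, settings or an annotation release. The authors deposited whole-number read counts per gene, not normalized; per the labels' protocols, the library kit was NEBNext Ultra RNA, run as paired-end reads. Whether counting used strand is not stated, so overlapping and antisense genes cannot be told apart. A deposited comparison table keyed by printed symbols was not used.

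Gene IDs were given symbols and exon lengths from GENCODE vM21 (GRCm38); 48970 of 49315 had a symbol, and the others held 0.0316% to 0.0498% of counts. Replicates differed by more than counting noise (chi-square per degree of freedom 13.3 in M1 and 2.30 in M2), and each library was counted as 1 sample. All genes were fitted with edgeR 4.0.16 (R 4.3.3): filterByExpr (minimum count 10, minimum total 15), TMM, robust quasi-likelihood F test, two-sided, Benjamini-Hochberg over 14656 genes, threshold 0.05. SE was taken as |log2 fold change| / sqrt(F). On 5 simulated data sets of these genes the fit recovered 85.2% of changes of log2 size 1 and 99.6% of size 2, and unchanged genes made up 4.57% of calls. Few genes were changed in those sets and both groups had the same spread, whereas 77.2% of genes were called in the data. These rates therefore need not hold for the calls reported above. Similar transcripts were found with BLAST 2.17.0 (at least 150 bases). Promoters are from RefSeq. Protein sequences were not used here, so the planned description of protein motifs was not made.

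The members, gene lists and marker lists of 10 cell types were chosen with earlier results of these data known. Every member with enough counts was named with its values, and of the signalling lists the 3 largest changes each way of at least 5 CPM; 1 of these genes and 1 promoter motif are not reported here. Alternatives were RLE, upper-quartile and total-count scaling, no filter, a CPM filter, DESeq2 1.42.0, limma-voom (limma 3.58.1), a non-robust spread, glmTreat and leaving out each library. Replicate numbers are in accession order and pair nothing.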

Additional observations from a re-analysis of the deposited data

How the results depend on the processing

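Over 13 alternatives, 286 of 306 values of the 24 tested members kept their direction and their side of the threshold, 15 lost a call, 3 gained one and 2 reversed. Clec16a went from -0.21 to 0.24 and the uncalled Clec4a4 from -0.34 to 0.10 under total-count scaling. The 306 values are not independent, since every setting drew on the same 4 libraries. Under glmTreat and the non-robust spread the log2 values equalled those of the main fit, so only calls could move there. Members higher in M2 numbered 9 to 13 and members lower 6 to 11. With glmTreat, which asks for more than a 2-fold difference, 9 members were higher and 6 lower, so 7 of the 22 called members did not pass it, and 1 signalling gene was higher and 11 lower. Total-count scaling called 20 signalling genes higher in place of 10. Leaving out 1 library gave 11 to 12 members higher and 9 to 11 lower, with 8 to 10 signalling genes higher and 22 to 26 lower. The lone library of a group was then assumed to vary like the other group. The CPM filter left 18 members and 39 signalling genes. No paired analysis was possible because the labels give no replicate numbers. Depth limits the members under 1 CPM, and 2 libraries per group limit every SD.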

Other observations

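The remaining marker lists are given by their summed levels and calls. The sums were 2.06 and 2.77 CPM in M1 and 2.49 and 2.76 in M2 for 5 B cell markers, 16.0 and 16.3 against 17.9 and 21.9 for 10 neutrophil markers, and 7.69 and 7.08 against 1.21 and 1.43 for 6 basophil and mast cell markers. Of the B cell markers 4 were tested, 1 higher and 1 lower. Of the neutrophil markers 7 were tested: Mpo, Ngp, Ltf and S100a9 were higher in M2, by 7.14-fold to 9.70-fold, S100a8 was lower (8.34 to 2.63 CPM) and 2 were not called. Of the basophil and mast cell markers 3 were tested: Kit was lower (6.88 to 0.264 CPM), Mcpt8 was higher (0.0953 to 0.453 CPM) and 1 was not called. The 6 plasmacytoid dendritic cell markers summed to 1222 and 1070 CPM in M1 and 188 and 187 in M2, of which Bst2, an interferon-stimulated gene, gave a mean of 1046 in M1; 5 were tested, 1 higher and 4 lower. The 6 endothelial markers summed to 288 and 267 CPM in M1 and 110 and 107 in M2, but their members split: Kdr (138 to 1.88 CPM) and Pecam1 (134 to 6.87) were lower, Vwf (5.65 to 98.6) was higher, and of the other 3 the 1 tested was not called.

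The interval on chromosome 6 from Clec2j to Clec7a also holds 7 other tested genes, 6 lower and 1 higher in M2. Cd69, a lectin-like activation antigen of leukocytes that the family's symbols do not cover, had a mean of 525.5 CPM in M1 and 0.715 in M2 (log2 -9.50, adjusted p = 1.48e-17), a difference of about the size of that of Mgl2. Klrb1b, the receptor that binds Clec2d, had 0.539 CPM in M1 and 0.0913 in M2 (log2 -2.53, adjusted p = 4.07e-04). Ligand and receptor were thus both lower in M2, but Klrb1b was near the limit of detection, and a link between them was not tested. Olr1, the oxidized lipoprotein receptor LOX-1 beside Clec7a, had 0.341 CPM in M1 and 0.999 in M2 (log2 1.55, adjusted p = 0.00141). These genes, and the markers named above, were named after their values were seen.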
